A study of Mus musculus with 4 samples.

Results

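Transcripts of the oligodendrocyte lineage, the glial lineage that makes central myelin, were followed by stage in mouse engineered neural tissue with and without electrical stimulation. The 33 genes were taken by symbol from the deposited table of 23874 genes and all 33 were found. They were divided into 3 progenitor genes, 4 transcription factors of the lineage, 9 genes of committed precursors and newly formed cells, and 17 genes of myelinating cells. The tissue was made from mouse neurospheres, neural stem cells grown as floating spheres, set in Matrigel, a basement membrane extract, under N2 and B27 medium with 20 ng/ml human basic fibroblast growth factor. In the EF group a field of 150 mV/mm was applied for 30 min daily over 3 days, and 7 more days of culture followed. The noEF group was the same tissue left unstimulated, by the sample labels, although the design text of the series speaks of stem cell suspensions in that role. No genotype, strain or animal age was used here. 2 libraries per group were analysed, while the labels state 3 replicates per group. Whether replicates were separate cultures is not labelled, so every p-value rests on a spread between libraries that may be technical.

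Total counts were 33748880 to 34554537 per library, and 1 count was worth 0.0280 to 0.0307 CPM (counts scaled to library size). Each of 10 neural stem cell markers was detected in each library, and so was each of 10 astrocyte markers, so detection does not tell these cells apart. In bulk RNA, fewer cells of a type and less RNA per cell cannot be told apart.

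Oligodendrocytes arise from progenitors that carry the receptor for platelet-derived growth factor and the proteoglycan NG2 and that divide in response to mitogens, among them basic fibroblast growth factor. The basic helix-loop-helix factors Olig1 and Olig2 are made from the progenitor stage onwards. A short-lived committed precursor then makes the receptor Gpr17 and loses Pdgfra, and the factor Myrf switches on genes of the myelin sheath such as Mbp, Mag, Mobp and Mog.

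The lineage was represented mainly by its early genes. Levels are compared between genes as CPM per kb of exon, and percentiles are among 13438 tested genes with an exon length. Olig1 stood at 967 CPM per kb on average (percentile 99.8), Olig2 at 121 (percentile 97.1), the progenitor gene Lhfpl3 at 30.4 (percentile 87.3) and Cspg4 at 6.32 (percentile 57.7). Nkx2-2 was at 5.66 (percentile 55.2), Pdgfra at 3.40 (percentile 43.2) and Zfp536 at 0.0226. Of the myelinating genes, Cnp reached 52.3 CPM per kb (percentile 92.7) and Enpp2 13.0 (percentile 73.4), both above Cspg4. No other myelinating gene exceeded 1.78 CPM per kb, the level of Nkx6-2 (percentile 30.3). Mbp, which encodes myelin basic protein, was at 1.75 CPM per kb (percentile 29.9). Mag was at 0.242, Mobp at 0.0567, Ermn at 0.0366 and Mog at 0.0219 CPM per kb, with Mag at percentile 8.20 and the others lower. Between these ends lay the committed genes, from 4.12 CPM per kb for Bcas1 down to 0.394 for Zfp488. Some neighbours in this order swapped places between the groups: Gjc3 was above Mbp, and Tspan2 above Gpr17, in both EF libraries, and the reverse held in both noEF libraries.

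**Figure D1:**
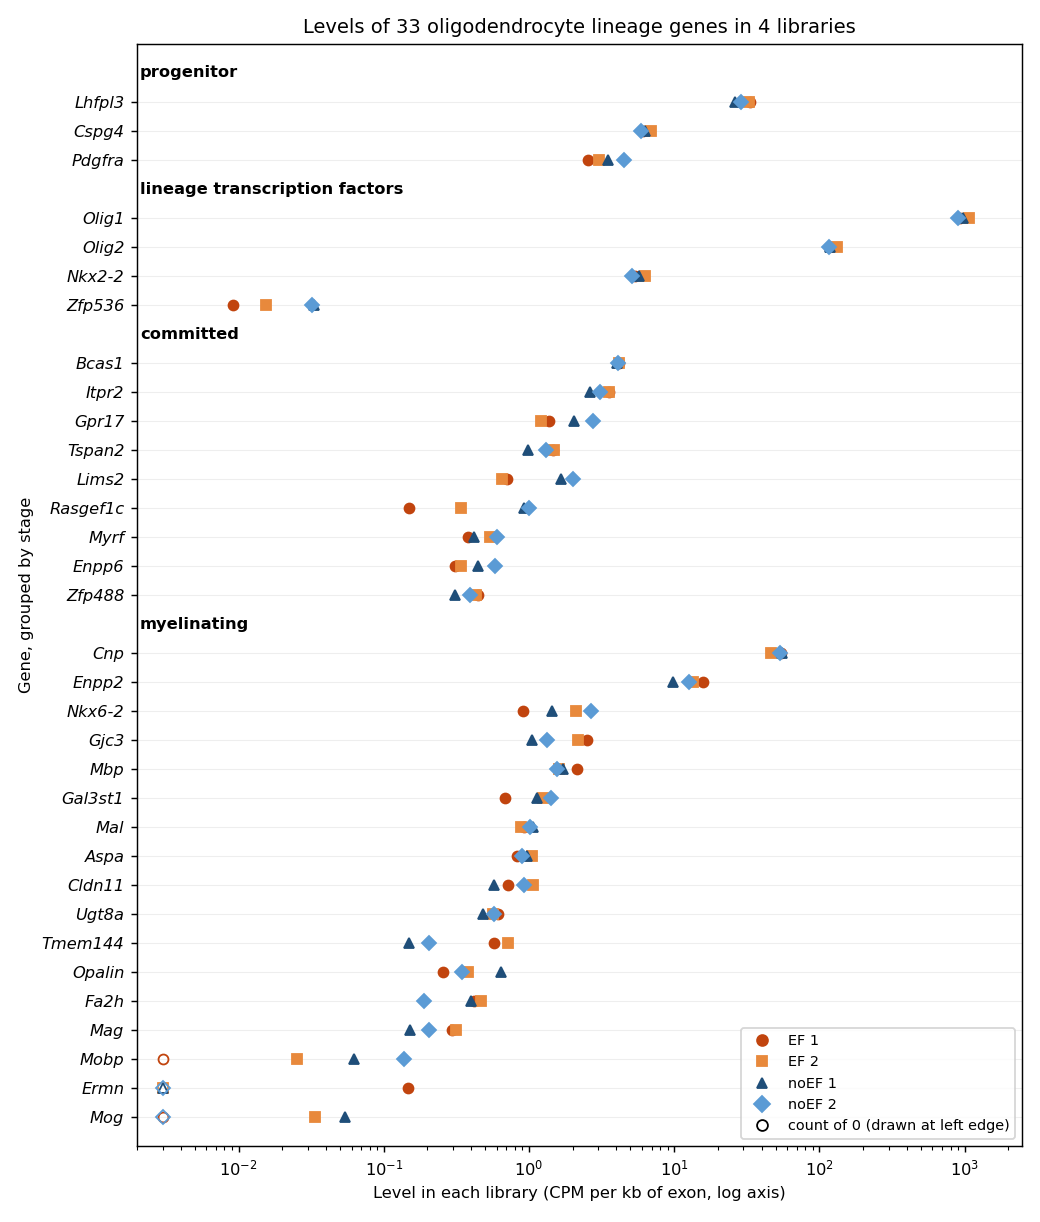
Level of each of the 33 genes in each of the 4 libraries, in CPM per kb of exon on a log axis, grouped by stage; open symbols at the left edge are counts of 0. Olig1 and Olig2 lie far to the right in each library, and Mobp, Ermn and Mog are at or close to 0.

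Between EF and noEF, most members did not pass the test. Of the 33 genes, 30 had enough counts to be tested, and 4 were lower in EF, 2 were higher and 24 did not pass (edgeR quasi-likelihood, Benjamini-Hochberg adjusted p under 0.05 over 14263 genes). The lower genes were the progenitor receptor Pdgfra and the committed genes Gpr17, Lims2 and Rasgef1c, and the higher ones were the myelinating genes Gjc3 and Tmem144. Called members were 20.0% of those tested, against 8.82% of all tested genes. Those called lower were 13.3% against 4.99%, and those called higher 6.67% against 3.83%. Across all genes 712 were lower and 546 higher. With library totals in place of the TMM factors 505 genes were lower and 1138 higher, and 3 members were lower and 5 higher. The members' median log2 fold change was 0.09, against 0.01 for all tested genes, and by stage it was 0.08 in progenitor genes, 0.09 in the transcription factors, -0.15 in committed genes and 0.16 in myelinating genes. Log2 fold changes were below 0 in 12 members and above 0 in 18, against 48.9% and 51.1% of all genes. Both groups' libraries were apart, without overlap, in 17 of the 30 members (56.7%, against 54.4%): 7 had EF below noEF (23.3%, against 26.8% of all genes) and 10 had EF above (33.3%, against 27.6%).

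**Figure D2:**
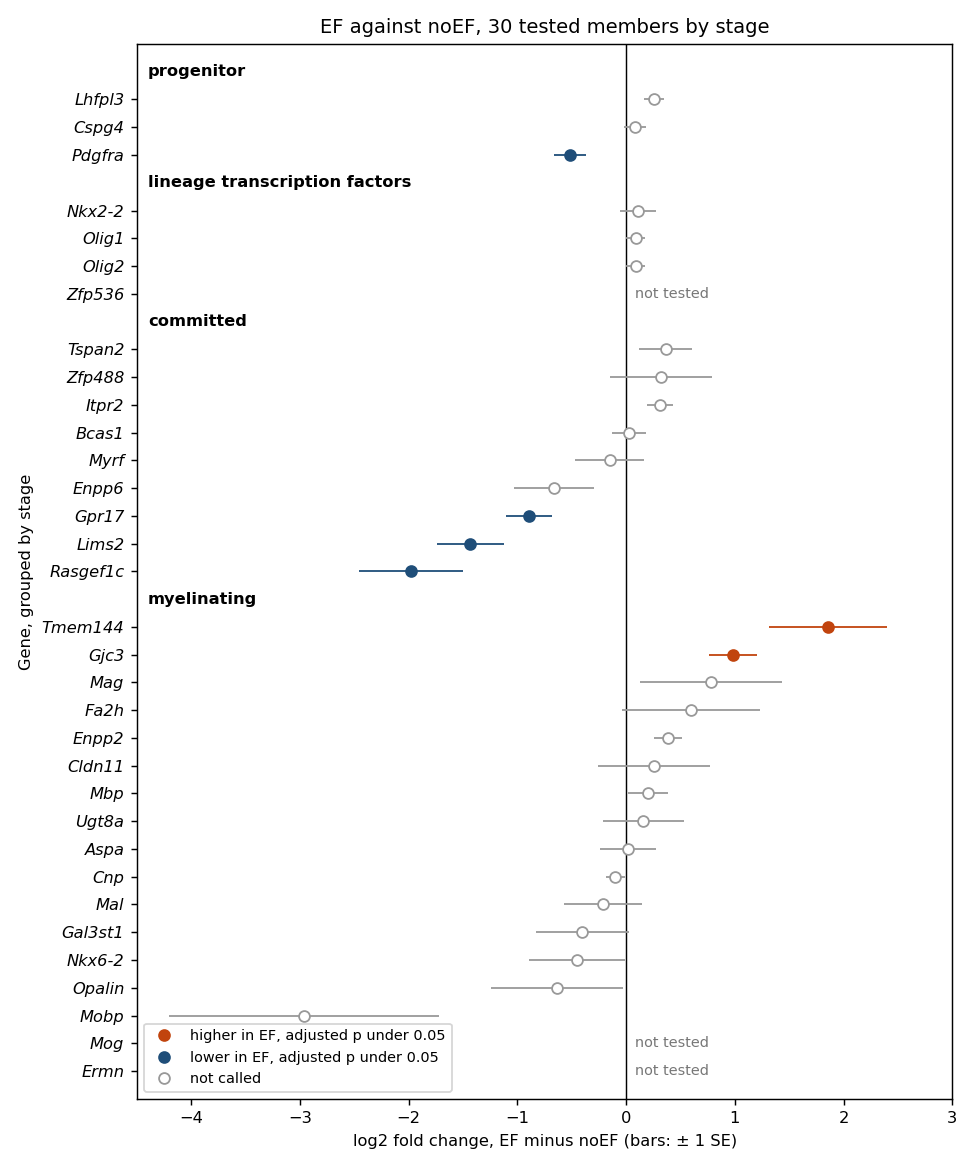
Log2 fold change, EF minus noEF, of the 30 tested members with 1 SE on each side, grouped by stage; filled points passed the edgeR test at an adjusted p under 0.05. The 3 called committed genes lie at -0.89, -1.43 and -1.98, and the 2 called myelinating genes at 0.98 and 1.86.

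The 4 called members with a RefSeq promoter entry (GRCm38.p6) are shown with the 250 bases before their first listed start, because they moved in opposite directions. Capitals mark a match to a SOX core (ACAAAG or its reverse complement CTTTGT), an E-box (CAGCTG, its own reverse complement) or a MYRF core (CTGGCAC or CTGGTAC, or GTGCCAG and GTACCAG on the other strand). Each motif was searched on its own, so matches of different motifs may share letters.
Pdgfra, GRCm38 chr5:75152001-75152250, plus strand: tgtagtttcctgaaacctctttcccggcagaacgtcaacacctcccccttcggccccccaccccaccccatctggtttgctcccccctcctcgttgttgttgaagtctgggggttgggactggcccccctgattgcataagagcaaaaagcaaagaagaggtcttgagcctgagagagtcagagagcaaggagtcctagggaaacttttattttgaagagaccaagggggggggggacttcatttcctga
Rasgef1c, GRCm38 chr11:49901585-49901834, plus strand: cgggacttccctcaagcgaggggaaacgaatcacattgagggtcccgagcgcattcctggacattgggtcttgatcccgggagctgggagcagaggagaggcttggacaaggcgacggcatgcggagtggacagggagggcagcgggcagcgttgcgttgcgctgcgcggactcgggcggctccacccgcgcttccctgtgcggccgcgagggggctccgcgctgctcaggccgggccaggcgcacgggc
Gjc3, GRCm38 chr5:137963099-137963348, minus strand: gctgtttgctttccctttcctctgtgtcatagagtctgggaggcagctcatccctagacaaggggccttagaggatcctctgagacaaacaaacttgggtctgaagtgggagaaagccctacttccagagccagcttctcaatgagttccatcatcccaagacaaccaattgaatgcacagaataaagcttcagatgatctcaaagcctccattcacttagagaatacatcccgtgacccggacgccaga
Tmem144, GRCm38 chr3:79852769-79853018, minus strand: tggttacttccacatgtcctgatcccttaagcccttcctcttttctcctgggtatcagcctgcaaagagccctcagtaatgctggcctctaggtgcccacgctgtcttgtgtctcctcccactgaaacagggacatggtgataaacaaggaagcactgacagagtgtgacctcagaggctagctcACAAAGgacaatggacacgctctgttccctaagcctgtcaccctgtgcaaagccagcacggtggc
The RefSeq start of Pdgfra lies 41 bases before its GENCODE gene start, so only 9 bases could be compared with a GENCODE transcript there, and these matched. The windows of Pdgfra and Rasgef1c, lower in EF, and of Gjc3, higher in EF, held none of these letters, and that of Tmem144 held 1 SOX core. The GC content was 54.4% for Pdgfra, 70.0% for Rasgef1c, 48.8% for Gjc3 and 53.6% for Tmem144. Over all members, 25 genes had 34 such windows. The SOX core was in 8 of them (23.5%, against 16.5% of 32851 windows of the same length), in Cnp, Mag, Mobp, Opalin, Tmem144 and Tspan2. The MYRF core was in 5 (14.7%, against 5.93%), in Cnp, Mag, Mog and another start of Tmem144, and the E-box was in 2 (5.88%, against 13.0%). A match is a description of letters and shows no binding.

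Of the progenitor genes 1 of 3 passed the test. Pdgfra, the receptor for platelet-derived growth factor that progenitors need to divide (ENSMUSG00000029231, GRCm38 chromosome 5, 75152292 to 75198215), had 25.7 and 30.4 CPM in EF 1 and EF 2 and 35.3 and 44.9 CPM in noEF 1 and noEF 2. Both EF libraries were below both noEF libraries, and the widest gap within a group was between the noEF libraries. Its log2 fold change was -0.52 (SE 0.15, edgeR adjusted p = 0.0396), 1.43-fold lower in EF. The call was lost with library totals (-0.43, edgeR adjusted p = 0.0648), without EF 1 (-0.40, edgeR adjusted p = 0.258) and without noEF 2 (-0.34, edgeR adjusted p = 0.187).

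Cspg4, which encodes NG2, had 72.9 and 82.2 CPM in EF and 75.6 and 70.7 CPM in noEF. These ranges overlapped, and the log2 fold change was 0.08 (SE 0.10, edgeR adjusted p = 0.668). Lhfpl3, a tetraspan membrane protein gene, had 107 and 106 CPM in EF against 84.6 and 93.3 CPM in noEF. Its EF libraries were above both noEF libraries, but its log2 fold change of 0.26 (SE 0.09) did not pass (edgeR adjusted p = 0.0977). It passed with library totals (0.34, edgeR adjusted p = 0.0265). The progenitor genes thus had values on both sides of 0.

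None of the 3 transcription factors tested passed by edgeR as reported. Olig1 had 2004 and 2302 CPM in EF and 2102 and 1950 CPM in noEF, and Olig2 had 296 and 333 against 298 and 295 CPM. For both the EF 2 library was highest and the other libraries overlapped. Their log2 fold changes were 0.09 (SE 0.09) each, with edgeR adjusted p-values of 0.597 and 0.598. After removal of trends with gene length and GC both passed, at 0.28 and 0.25 (edgeR adjusted p = 0.0151 and 0.0339). Per kb, Olig1 stood 7.74 to 8.26 times as high as Olig2 within a library. Nkx2-2, a homeodomain factor of progenitors and early oligodendrocytes, had 15.5 and 18.2 CPM in EF and 16.5 and 14.8 CPM in noEF (log2 fold change 0.11, SE 0.16, edgeR adjusted p = 0.754). The zinc finger gene Zfp536 was not tested. It had counts of 3 and 5 in EF and 10 and 10 in noEF.

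The committed genes had values on both sides of 0. Of the 9, 3 were lower (33.3%, against 4.99% of all genes), 0 were higher and 6 did not pass. In 4 of the 9 both EF libraries were below both noEF libraries (44.4%, against 26.8%), and in another 4 they were above (44.4%, against 27.6%). Bcas1 was among the latter by a narrow margin only, with 15.62 CPM in EF 2 and 15.55 CPM in noEF 2. Myrf was the single gene with overlapping groups.

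Gpr17, a receptor made transiently by committed precursors (ENSMUSG00000052229), had 7.14 and 6.30 CPM in EF 1 and EF 2 and 10.6 and 14.4 CPM in noEF 1 and noEF 2. It was 1.86-fold lower in EF (log2 fold change -0.89, SE 0.21, edgeR adjusted p = 0.0164). Both EF libraries were below the lower noEF library, and noEF 2 was highest. Without EF 2 and without noEF 2 the call was lost (-0.80 and -0.66, edgeR adjusted p = 0.0531 and 0.101).

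Lims2, which encodes a LIM domain adaptor of integrin adhesions (ENSMUSG00000024395), is a neighbour of Gpr17 on the opposite strand. It had 2.16 and 2.01 CPM in EF and 5.10 and 6.16 CPM in noEF. It was 2.70-fold lower in EF (log2 fold change -1.43, SE 0.31, edgeR adjusted p = 0.0102), and it alone of the 6 called members kept its call under all 12 alternative settings. The exons of the 2 genes share 188 bases, 6.14% of those of Lims2 and 3.62% of those of Gpr17. Without a stated strand setting, reads from the shared stretch cannot be told apart. The count of Gpr17 divided by that of Lims2 was 3.31 and 3.14 in EF and 2.07 and 2.34 in noEF, and this difference was not tested.

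Rasgef1c, a gene of the Ras guanine nucleotide exchange factor family (ENSMUSG00000020374, GRCm38 chromosome 11, 49901835 to 49980994), had 0.532 and 1.20 CPM in EF and 3.32 and 3.54 CPM in noEF. The EF libraries held 19 and 42 counts and the noEF libraries 108 and 119. It was 3.94-fold lower in EF (log2 fold change -1.98, SE 0.47, edgeR adjusted p = 0.0181). EF 1 was the lowest library, 2.26-fold below EF 2, and without EF 1 the call was lost (-1.51, edgeR adjusted p = 0.0931). Without EF 2 the value was -2.68.

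Enpp6, a choline phosphodiesterase gene used to mark newly forming oligodendrocytes, had 1.99 and 2.18 CPM in EF and 2.86 and 3.75 CPM in noEF. Its groups did not overlap, but its log2 fold change of -0.66 (SE 0.37) did not pass (edgeR adjusted p = 0.300). Itpr2, an inositol trisphosphate receptor gene, had 53.0 and 52.3 CPM in EF against 38.8 and 46.0 CPM in noEF (log2 fold change 0.31, SE 0.12, edgeR adjusted p = 0.114). It was called with library totals (0.40, edgeR adjusted p = 0.0394) and without noEF 2 (0.44, edgeR adjusted p = 0.0262). Bcas1, which marks cells starting to myelinate, was nearly level, at 15.8 and 15.6 CPM in EF and 15.3 and 15.6 CPM in noEF (log2 fold change 0.03, SE 0.16, edgeR adjusted p = 0.949). The tetraspanin gene Tspan2 and the Olig2 partner Zfp488 had log2 fold changes of 0.36 and 0.32, and Myrf was at -0.15 (edgeR adjusted p = 0.399, 0.742 and 0.827). Myrf had 3.28 and 4.58 CPM in EF and 3.56 and 5.17 CPM in noEF, with the second library the higher in each group.

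Of the 17 myelinating genes 15 were tested, 2 were higher in EF, 0 were lower and 13 did not pass. Gjc3, which encodes a connexin of myelinating glia (ENSMUSG00000056966, GRCm38 chromosome 5, 137953461 to 137963098), had 10.9 and 9.54 CPM in EF and 4.58 and 5.77 CPM in noEF. It was 1.97-fold higher in EF (log2 fold change 0.98, SE 0.22, edgeR adjusted p = 0.0133). The groups were far apart compared with the gaps within them. The call was lost without EF 1 (0.88, edgeR adjusted p = 0.0901) and without noEF 1 (0.82, edgeR adjusted p = 0.0538).

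Tmem144, a transmembrane protein gene (ENSMUSG00000027956, GRCm38 chromosome 3, 79812564 to 79852773), had 2.02 and 2.49 CPM in EF and 0.522 and 0.714 CPM in noEF. These rest on 72 and 87 counts in EF and 17 and 24 in noEF. It was 3.63-fold higher in EF (log2 fold change 1.86, SE 0.54), close to the threshold at an edgeR adjusted p of 0.0453. It was the least stable of the 6 called members, with the call kept in 6 of its 11 alternatives and adjusted p-values from 0.0129 to 0.190. It was lost with limma-voom and the replicate block and without EF 1, EF 2 or noEF 1, and DESeq2 gave it no adjusted p.

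**Figure D3:**
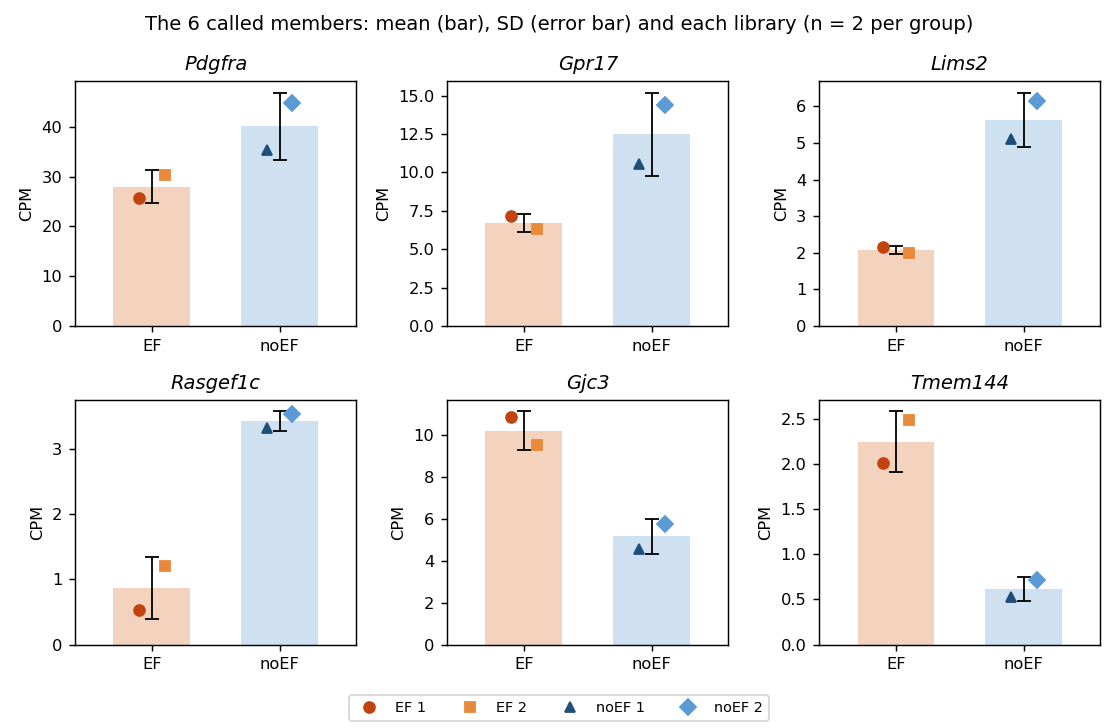
CPM of the 6 called members by group, with the mean as a bar, the SD as an error bar and each library as a point (n = 2 per group). In each panel the 2 EF libraries lie on 1 side of the 2 noEF libraries, below them for Pdgfra, Gpr17, Lims2 and Rasgef1c and above them for Gjc3 and Tmem144.

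The abundant myelinating genes did not pass. Cnp, a phosphodiesterase of myelin and of progenitors, had 198 and 170 CPM in EF and 200 and 194 CPM in noEF (log2 fold change -0.10, SE 0.09, edgeR adjusted p = 0.570). Enpp2, which encodes the secreted enzyme autotaxin, had 91.7 and 78.3 CPM in EF and 56.8 and 73.4 CPM in noEF. Its EF libraries were above both noEF libraries, and its log2 fold change of 0.38 (SE 0.13) did not pass (edgeR adjusted p = 0.0909). It was called with library totals (0.47, edgeR adjusted p = 0.0388), with no filter (0.39, edgeR adjusted p = 0.00309), without EF 2 (0.49, edgeR adjusted p = 0.0438) and without noEF 2 (0.58, edgeR adjusted p = 3.58e-04). Mbp had 18.2 and 13.5 CPM in EF and 14.4 and 13.2 CPM in noEF, with EF 1 highest and the other libraries close together (log2 fold change 0.20, SE 0.18, edgeR adjusted p = 0.557).

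Genes of myelin lipid synthesis, Ugt8a, Fa2h and Gal3st1, had log2 fold changes of 0.16, 0.59 and -0.40, none of which passed (edgeR adjusted p = 0.852, 0.628 and 0.627). Fa2h, a fatty acid hydroxylase gene, had 1.26 and 1.40 CPM in EF and 1.20 and 0.565 CPM in noEF, a 2.12-fold gap between the noEF libraries. The axon-facing adhesion gene Mag was at 0.78, the tight junction gene Cldn11 at 0.26, the lipid raft proteolipid gene Mal at -0.21, the aspartoacylase gene Aspa at 0.02 and Opalin, a membrane protein gene of mature oligodendrocytes, at -0.64. None of these passed (edgeR adjusted p = 0.519, 0.821, 0.782, 0.978 and 0.584). Nkx6-2, a homeodomain factor of oligodendrocyte maturation, had 1.74 and 4.01 CPM in EF and 2.73 and 5.11 CPM in noEF (log2 fold change -0.45, SE 0.44, edgeR adjusted p = 0.599). The gap within each group was larger than that between the groups. Exons of Nkx6-2 share 246 bases, 12.9% of its exon length, with Inpp5a on the other strand, which had 9813 counts over the 4 libraries.

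The transcripts of compact or late myelin were at the edge of detection. Mobp, an abundant protein of mature myelin, had 0 and 6 counts in EF and 14 and 32 in noEF. Its log2 fold change of -2.96 (SE 1.24) did not pass (edgeR adjusted p = 0.159), and it met the count filter through the noEF libraries alone. Leaving out 1 library moved it from -1.98 (without EF 1) to -7.56 (without EF 2, where the EF count is 0 and the value depends on the prior count). Mog, an outer myelin glycoprotein gene, had 0 and 2 counts in EF and 3 and 0 in noEF, and was not tested. Ermn, a cytoskeletal protein gene of late oligodendrocytes, had 19 counts in EF 1 and 0 in the other libraries, and was not tested. A count of 0 allows a level of up to 0.0840 to 0.0922 CPM in a library (3 counts).

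Other genes of the lineage were taken from further lists, to be read against the 4.99% of all tested genes called lower and 3.83% called higher. Of 15 further progenitor genes 1 was lower (6.67%) and 1 higher (6.67%), with a median log2 fold change of 0.04. C1ql1, a secreted C1q-like protein gene of progenitors, had 6.67 and 7.97 CPM in EF and 16.8 and 19.4 CPM in noEF, 2.48-fold lower in EF (log2 fold change -1.31, SE 0.18, edgeR adjusted p = 5.60e-04). Both EF libraries were below both noEF libraries, and it kept its call in 12 of 12 alternatives. Xylt1, which starts glycosaminoglycan chains on proteoglycans, was higher by 0.35 (edgeR adjusted p = 0.0391), and lost its call without EF 1, EF 2 or noEF 1 (0.22 to 0.37). Ptprz1, a receptor phosphatase and the most abundant of these genes in CPM, was at 0.20 (edgeR adjusted p = 0.170). Sox10, the factor that defines the lineage from progenitor to myelin, had 6.02 and 11.8 CPM in EF and 11.8 and 8.36 CPM in noEF, which overlap (log2 fold change -0.18, SE 0.34, edgeR adjusted p = 0.815).

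Of 15 further committed genes 14 were tested, 1 was lower (7.14%) and 1 higher (7.14%), with a median of 0.07. The signalling gene Chn2, a Rac GTPase-activating protein, was higher by 0.42 (edgeR adjusted p = 0.0206) and lost its call without EF 1, EF 2 or noEF 1 (0.32 to 0.45). Fyn, a Src family kinase of early differentiation and the most abundant of these in CPM, was at 0.04 (edgeR adjusted p = 0.821). Gp1bb had 10 and 4 counts in EF and 168 and 160 in noEF, and was lower (log2 fold change -4.62, SE 0.50, edgeR adjusted p = 6.63e-05). It met the count filter through the noEF libraries alone, where it was high, and it is the 1 gene counted as lower here. Its exons share 91.1% of their length with the septin gene Sept5 on the same strand, so its reads are not assigned with certainty. Its value was -5.39 without EF 1, and Sept5 was at 0.05 (edgeR adjusted p = 0.815).

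Of 20 further genes of mature oligodendrocytes 14 were tested, 3 were lower (21.4%, against 4.99% of all genes) and 1 higher (7.14%, against 3.83%), with a median of -0.20. Trf, which encodes transferrin, was higher, with 244 and 230 CPM in EF against 167 and 170 CPM in noEF (log2 fold change 0.49, SE 0.08, edgeR adjusted p = 0.00219). The dihydropteridine reductase gene Qdpr, the actin-severing gene Gsn and the small heat shock gene Cryab were lower (-0.46, -0.65 and -0.43, edgeR adjusted p = 0.00503, 0.00386 and 0.0102). Cryab lost its call without EF 1 (-0.36), without noEF 1 (-0.33) and with the length and GC trend removed (-0.15). Plekhb1, the most abundant of these in CPM, was at -0.14 (edgeR adjusted p = 0.283).

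Of 13 regulators of differentiation 2 were lower (15.4%, against 4.99% of all genes) and 0 higher, with a median of -0.17. The list is mixed: it holds inhibitors of differentiation such as Hes5 and Lingo1, but also Zeb2, Hdac1 and Hdac2, which differentiation needs. The lower genes were the inhibitors of helix-loop-helix factors Id4 and Id2, at -0.90 and -0.33 (edgeR adjusted p = 0.00582 and 0.0264). Id4 had 7.98 and 8.88 CPM in EF and 15.5 and 16.0 CPM in noEF, and kept its call in 12 of 12 alternatives. Id2 lost its call in 5 of its 12 alternatives, without EF 1 or EF 2 among them, with adjusted p-values from 0.00551 to 0.198. Egfr, the most abundant of this list in CPM, was at 0.10 (edgeR adjusted p = 0.526).

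Of 22 genes of signals that act on the lineage 20 were tested, 2 were lower (10.0%) and 1 higher (5.00%), with a median of 0.02. The cytokine genes Cntf and Lif were lower, at -1.43 and -0.92 (edgeR adjusted p = 0.00117 and 0.0466), and 78.9% of the exon length of Cntf is shared with Zfp91 on the same strand. Dio2, the deiodinase that activates thyroid hormone, was higher by 0.36 (edgeR adjusted p = 0.0439). Lif lost its call in 6 of 12 alternatives (adjusted p-values 0.0152 to 0.170), without EF 1, EF 2 or noEF 2 among them. Dio2 lost its call in 5 of 12 (adjusted p-values 0.00452 to 0.305), without EF 1, EF 2 or noEF 1 among them, and Cntf lost it in 0. The platelet-derived growth factor gene Pdgfa, which encodes the ligand of Pdgfra, was at -0.36 and did not pass (edgeR adjusted p = 0.0936). Thra, a thyroid hormone receptor gene and the most abundant of this list in CPM, was at -0.27 (edgeR adjusted p = 0.0537), and it was called with no filter, with a filter of 1 CPM, by DESeq2, by limma-voom, without noEF 2 and with the length and GC trend removed.

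Markers of other cells moved in part with the groups. Of 10 astrocyte markers 5 were lower in EF (50%, against 4.99% of all genes) and 0 higher. Their log2 fold changes were below 0 in 8 and above 0 in 2. Their summed level was 5729 and 5468 CPM in EF and 6316 and 6545 CPM in noEF. Slc1a3, the most abundant of them in CPM, went the other way, with 2992 and 2733 CPM in EF and 2484 and 2638 CPM in noEF. It did not pass (log2 fold change 0.16, edgeR adjusted p = 0.248). Of 10 neural stem cell markers 3 were lower (30.0%) and 0 higher, with sums of 5137 and 5441 against 6917 and 6535 CPM. Of 9 neuron markers tested 0 passed, and the list summed to 482 to 584 CPM. Most of that sum was Map2, with 529 and 497 CPM in EF and 411 and 481 CPM in noEF, and Stmn2 had 0 counts in each library. Both EF libraries were below both noEF libraries in 4 of the 9 (44.4%, against 26.8% of all genes). They were above in 2, Map2 among them (22.2%, against 27.6%). The part of these cells in the results was not tested. Some members are also made outside the lineage. Schwann cells, the myelinating glia of nerves, make Gjc3, Mbp and Mag, and of 10 Schwann cell markers 5 were tested and 0 passed, and all 5 had both EF libraries above both noEF libraries, as 27.6% of all genes did. Their sum was 264 and 268 CPM in EF and 236 and 234 CPM in noEF, and Pmp2 and Foxd3 had 0 counts in each library. Pericytes make Cspg4 and fibroblasts make Pdgfra. Of 10 mural and fibroblast markers 4 were tested and 1, Acta2, was higher, and they summed to 10.2 and 6.10 CPM in EF and 4.67 and 4.46 CPM in noEF. Pdgfrb had 0 and 0 counts in EF and 10 and 13 in noEF, and Kcnj8, Abcc9 and Lum had 0 in each library. Endothelial markers summed to 1.46 to 4.03 CPM, with 0 of 2 tested called. Microglia markers summed to 0.224 to 1.16 CPM, with 8 of 10 at 0 counts in each library and 0 of 1 tested called.

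**Figure D4:**
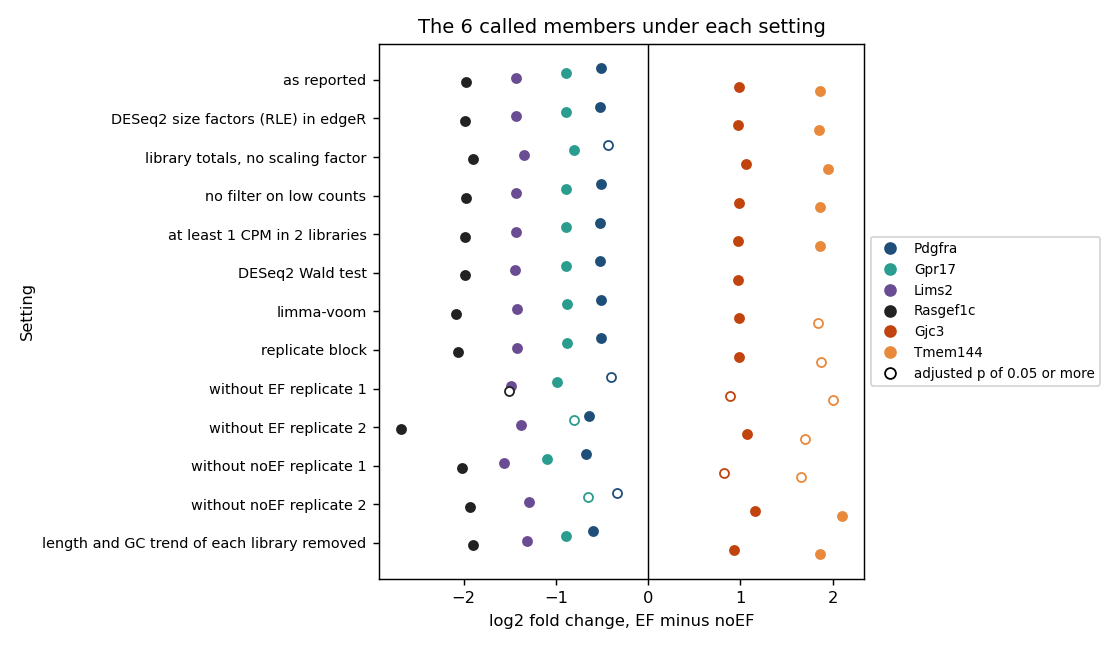
Log2 fold change, EF minus noEF, of the 6 called members as reported and under the 12 alternative settings, with open points where the adjusted p was 0.05 or more; DESeq2 gave no adjusted p for Tmem144, which has no point there. Each gene stays on 1 side of 0 in all settings plotted, and Lims2 is the single gene with filled points throughout.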

How the data were processed

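RNA was sequenced from 2 EF and 2 noEF libraries of engineered neural tissue. Per the labels' protocols, polyadenylated RNA was fragmented and copied from random hexamers. The authors deposited counts, whole and unscaled numbers for each gene by their values. HISAT2 2.0.4, StringTie 2.2.1, DESeq2 1.44.0 and GRCm38 are listed without role or order, per the submitters' processing notes. Counter, annotation and strand setting: not given in the sources used here. Limits for counts of 0 cover counting error only, since PCR copies are not independent molecules.

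The columns of the table were matched to samples by library name, and groups and replicate numbers came from the titles. The filterByExpr filter used a minimum count of 10 and a total of 15. TMM-scaled counts were then tested with edgeR 4.0.16 (robust quasi-likelihood F test, R 4.3.3). Benjamini-Hochberg adjustment ran over 14263 genes, with a call at 0.05. Fold changes are EF minus noEF, the SE is their size over the root of F, and CPM uses TMM-scaled sizes. The script was tested on simulated counts for this comparison, where 73% of changes of 1 and 19% of changes of 0.5 on the log2 scale were recovered. Changes were planted only in genes above a set mean count, so these rates do not cover members with the fewest counts, such as Mobp. Replicates of a group differed by more than sampling noise (chi-square 19.3 and 20.0 times its degrees of freedom), so none was treated as one library deposited again.

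The members, stages and lists were chosen with earlier results of these data known, so no list was tested. Members given by library were those called, the 3 most abundant of each stage and those with over a 2-fold gap within a group at a mean of at least 1 CPM. Enpp6, Myrf, Mobp, Mog, Ermn, Zfp536 and Pdgfa were added after their values were seen. In other lists, the called genes, the most abundant one and Sox10 were named, and cell markers were counted. Acta2, Map2, Slc1a3 and the defining markers at or near 0 were named after their values were seen. Gpr37 and Erbb3 are in 2 lists each. Some genes of these lists are not reported here by name. Exon lengths and coordinates came from GENCODE M21 (GRCm38), and GC content from its longest transcripts. The alternatives were RLE factors, library totals, no filter, a floor of 1 CPM in 2 libraries, the DESeq2 1.42.0 Wald test, limma-voom 3.58.1, the replicate block, each library left out, and the length and GC trend removed by splines.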

Additional observations from a re-analysis of the deposited data

How the results depend on the processing

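Of 353 log2 fold changes of the 30 tested members over 12 alternative settings, 317 kept their direction and side of the threshold, 13 lost a call, 9 gained one and 14 changed sign. For 20 other genes of the lineage these numbers were 204, 25, 8 and 3 of 240. The causes were not tested. With library totals 5 members were higher and their median was 0.17. With no filter 2118 genes were called. DESeq2 and limma-voom each called 1 member higher, and 4 were higher with the length and GC trend removed, where Aspa went to -0.087 and Egfr to -0.011. The replicate numbers are not stated to pair samples. With the replicate block 1 member was higher and 4 were lower, and 978 genes were called. Deviations of same-numbered libraries correlated at -0.128, and with the numbers crossed, chosen after seeing the data, 2625 genes were called, with 4 members lower and 5 higher.

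Leaving out 1 library gave 554 (without EF 1) to 1855 (without noEF 2) called genes, 2 to 4 lower and 0 to 4 higher members, and a median of -0.0062 to 0.10; a lone library is then assumed to vary like the other group. The 2 lower members without EF 1 were Gpr17 and Lims2, and those without noEF 2 were Lims2 and Rasgef1c. No member was called higher without EF 1 or without noEF 1. Values that changed sign ran from -0.16 to 0.17 for Aspa, -0.058 to 0.63 for Cldn11, -0.21 to 0.0087 for Cnp, -0.0034 to 0.17 for Cspg4, -0.030 to 0.40 for Mbp, -0.41 to 0.14 for Myrf, -0.0090 to 0.22 for Nkx2-2, -1.17 to 0.068 for Nkx6-2, -0.015 to 0.18 for Olig1 and -0.74 to 0.23 for Sox10.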

Other observations

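In 2 genes of the list of signals that act on the lineage, singled out after their values were seen, EF 1 stood apart from the other libraries. Fgf2, which encodes the mitogen that was also in the medium, had 12 counts in EF 1 and 370 in EF 2, with 377 and 404 in the noEF libraries, and its exons share 640 bases with Nudt6 on the opposite strand. Thrb, a thyroid hormone receptor gene, had 208 counts in EF 1 and 745 in EF 2, with 792 and 622 in the noEF libraries. Neither passed the test between the groups (edgeR adjusted p = 0.800 and 0.756).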
